A study of Mus musculus with 8 samples.

Results

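Ribosome biogenesis genes encode the proteins that transcribe, modify, cut and assemble ribosomal RNA in the nucleolus. A list of 36 such genes, taken by symbol, was followed in the inguinal mammary gland of mice after an injection of 17β-estradiol (E2), the main circulating estrogen. Of the 18193 genes with a probe set of their own on the array, all 36 were present, and 33 of them were among the 10916 genes whose mean level passed the filter for testing. Each gene was read from its brightest probe set, a group of short oligonucleotides whose signals are combined into 1 value. The mice were virgin, 12 to 13 weeks old and gonadectomized (GDX), an operation that removes the main source of sex steroids. All groups, vehicle included, shared the gonadectomy. Vehicle was given to the animals of 2 arrays, both labelled 24 h, and E2 under the skin to those of 6 arrays, with 1 array each at 1, 3 and 6 h and at 12, 18 and 24 h before tissue collection. Strain and sex are not stated in the labels used, the dose is labelled with conflicting units, and the times were read from the sample titles, while the free-text description of every sample reads 24 h. The labels speak of tissue collected from all mice of a group, and do not say whether RNA was pooled.

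RNA polymerase I transcribes the ribosomal RNA precursor. Small nucleolar ribonucleoproteins (snoRNPs) of the box C/D kind methylate that precursor and those of the box H/ACA kind convert uridines to pseudouridines, while processing factors cut it and fold it into the small and the large ribosomal subunit. The pathway is known to set the capacity for protein synthesis of growing cells, Myc is known as an activator of many of its genes, and estrogen is known to make mammary epithelium proliferate.

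The 8 arrays had median intensities between 173.9 and 180.5, close to each other as deposited. The log2 difference between the 2 vehicle arrays had an SD of 0.13 across the 10916 genes, and 4.75% of these genes were at least 1.2-fold apart between the 2 vehicle arrays. The labelled tissue was a mixture, with 12 of 14 luminal epithelial, 8 of 10 adipocyte, 15 of 16 skeletal muscle and 8 of 10 B lymphocyte markers among the genes tested. Of 9 myoepithelial markers 6 were tested (Krt5, Oxtr, Acta2, Myh11, Cnn1 and Mylk), while Krt14, Krt17 and Trp63 were below the level filter. In such tissue, fewer cells of a type and less RNA per cell cannot be told apart. Both vehicle arrays being labelled 24 h, whether E2, the injection or the time of day acted on the earlier arrays cannot be told apart. Nothing in the labels says that arrays stand for separate animals, so p-values measure only how far these arrays scatter, and part of that scatter may be technical.

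The ribosome biogenesis genes lay slightly above vehicle from 3 to 12 h after E2 and slightly below it at 18 and 24 h. Their median log2 difference from the vehicle mean was 0.03, 0.06 and 0.10 on the 1, 3 and 6 h arrays and 0.06, -0.09 and -0.10 on the 12, 18 and 24 h arrays. Over all genes tested the median was 0.02, 0.0078 and 0.01 on the 1, 3 and 6 h arrays and 0.01, -0.02 and -0.02 on the 12, 18 and 24 h arrays. The members' median differed by -0.03 between vehicle 1 and vehicle 2, so that the shifts at 3 to 24 h were larger than the difference between the 2 vehicle arrays and the shift at 1 h was of a like size. At 1 h the median was -0.0149 without vehicle 1. In fold terms these shifts were small, and no member passed the test at any time with the values as deposited.

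At 1 h, 13 of the 33 genes (39.4%) were higher than both vehicle arrays, against 39.7% of all genes tested, and 12 (36.4%) were lower than both, against 22.1%. At 3 h, 26 (78.8%) were higher than both, against 35.0% of all genes, and 3 were lower, against 28.6%. Those below at 3 h were Dkc1, Nhp2 and Polr1b. At 6 h the count above was 23 (69.7%, against 38.6%) and the count below was 2 (against 30.3%), namely Polr1c and Ubtf. At 12 h, 21 were above (63.6%, against 37.9%), and Nop58 and Polr1b were the 2 below (against 25.2%).

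The positions were the other way round on the last 2 arrays. At 18 h, 24 of 33 (72.7%) were lower than both vehicle arrays, against 44.2% of all genes, and Rrp9 and Bysl were the 2 higher than both, against 27.2%. At 24 h, 25 (75.8%) were lower, against 46.4%, and 4 were higher (Rrp9, Bysl, Nop2 and Noc2l), against 29.0%. The lowest of its 6 E2 arrays was the 24 h array for 19 members (57.6%), against 25.9% of all genes, and the 18 h array for 9, against 20.2%. The number of members with their highest E2 value was 6, 9 and 10 on the 1, 3 and 6 h arrays and 7, 1 and 0 on the 12, 18 and 24 h arrays, against 23%, 16.7% and 18.9% on the 1, 3 and 6 h arrays and 19.1%, 8.85% and 13.4% on the 12, 18 and 24 h arrays of all genes. These are counts by position over arrays that share the 2 vehicle arrays, and no test goes with them.

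**Figure D1:**
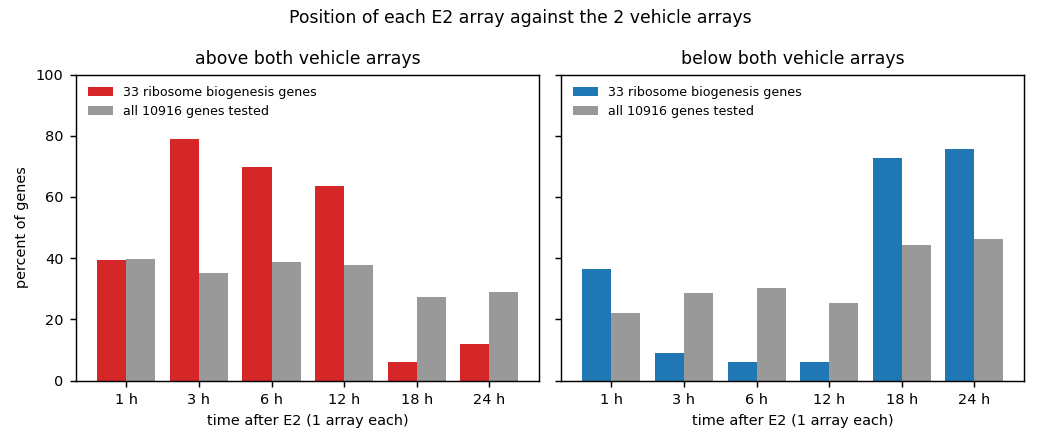
Percent of genes above (left) and below (right) both vehicle arrays on each E2 array, for the 33 ribosome biogenesis genes (coloured bars) and all 10916 genes tested (grey bars). The share above was 78.8% at 3 h, and the share below was 75.8% at 24 h.

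Few members lay far from vehicle. At least 1.2-fold above both vehicle arrays lay Gnl3 alone at 3 h (against 2.24% of all genes) and Bysl alone at 6 h (against 2.16%). On the 1, 12, 18 and 24 h arrays 0 members did, against 1.07%, 0.715%, 0.632% and 0.65% of all genes. At least 1.2-fold below both lay 0 members on the 1, 3, 6 and 12 h arrays, against 0.247%, 1.23%, 1.39% and 1.04% of all genes. At 18 h Nop58 and Nolc1 were that low (1.37% of all genes), and the same 2 genes were at 24 h (1.26%).

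In the limma fit with a mean for each of the 7 groups, which assumes that a single E2 array varies as the vehicle arrays do, 0 members passed an adjusted p of 0.05 at any of the 6 times. Over all genes the shares that passed were 0.0641%, 0.595% and 0.366% on the 1, 3 and 6 h arrays and 0.0366%, 0% and 0% on the 12, 18 and 24 h arrays. At an unadjusted p below 0.05 the members numbered 1, 3 and 4 on the 1, 3 and 6 h arrays and 0, 2 and 6 on the 12, 18 and 24 h arrays, against 2.75%, 6.53% and 7.96% on the 1, 3 and 6 h arrays and 4.37%, 5.84% and 6.4% on the 12, 18 and 24 h arrays of all genes. The smallest adjusted p of a member was 0.339, that of Gnl3 at 3 h. This fit has 1 residual degree of freedom, and its calls depended on the scaling: with every array centred on its median, Nop58 passed at 18 h (-0.45, limma adjusted p = 0.00323) and at 24 h (-0.58, limma adjusted p = 1.76e-05), while the genes called over the whole array numbered 106, 278 and 275 on the 1, 3 and 6 h arrays and 99, 171 and 169 on the 12, 18 and 24 h arrays.

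**Figure D2:**
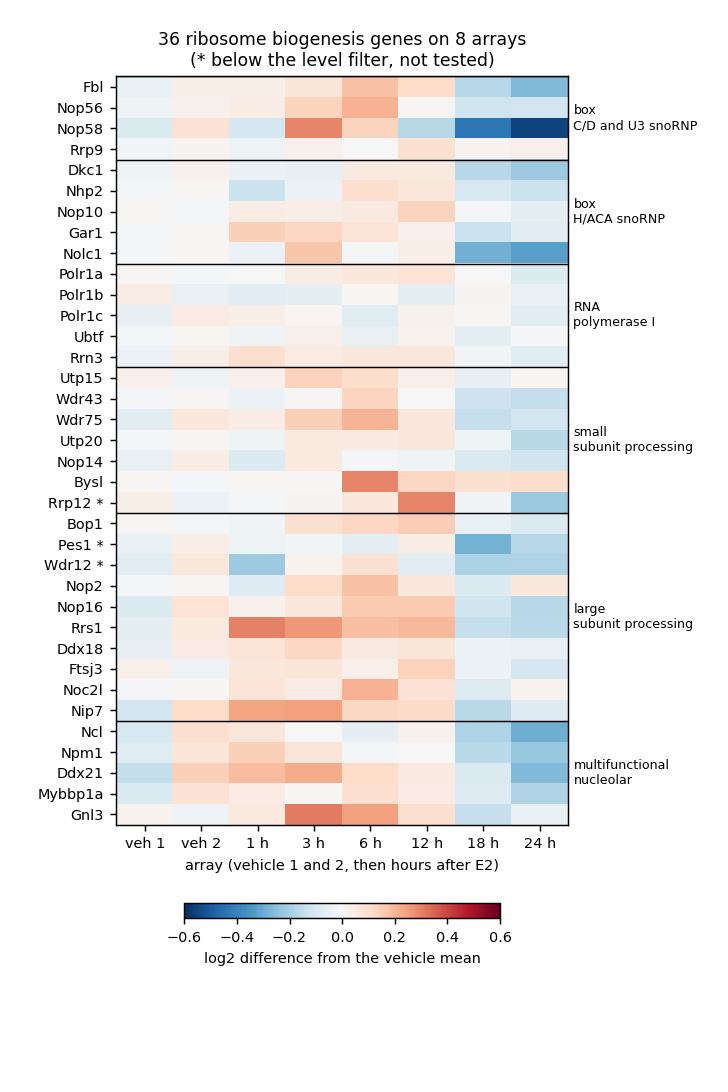
Heat map of the log2 difference from the vehicle mean for each of the 36 genes (rows, grouped by role) on the 8 arrays (columns, vehicle 1 and 2 and then the hours after E2). Red marks values above and blue values below the vehicle mean, and the stars mark the 3 genes that were not tested. The deepest blue cell is Nop58 at 24 h (-0.56).

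Promoter sequence was looked at for 31 of the 36 genes, those listed in the RefSeq promoter table of mouse build GRCm38.p6, in windows from 250 bases before to 50 bases after each annotated start. The E-box CACGTG, the core motif bound by Myc and related factors, was searched on both strands (it reads the same on both). It was found for 6 of the 31 genes (19.4%), namely Rrn3, Wdr43, Utp20, Pes1, Nop2 and Mybbp1a, against 8.09% of all 27025 genes and 7.15% of all 32851 promoters. The palindromic consensus estrogen response element, searched on both strands, is not in these windows of the 31 genes, while 0.07% of all promoters hold it. The E-box does not overlap the response element. Late minus early differences (12, 18 and 24 h against 1, 3 and 6 h) of the tested E-box holders ran from -0.12 to -0.05 on the log2 scale, within the range of the other members.

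The 250 bases before the start are shown for Nop58, the member farthest below vehicle, and Gnl3, the member farthest above it at 3 h, neither of which holds an E-box there, and for Rrn3 and Nop2, in which capitals mark each E-box. All are given from the upstream end to the start, on the strand of the gene.
Nop58 (chr1:59684756-59685005, plus strand): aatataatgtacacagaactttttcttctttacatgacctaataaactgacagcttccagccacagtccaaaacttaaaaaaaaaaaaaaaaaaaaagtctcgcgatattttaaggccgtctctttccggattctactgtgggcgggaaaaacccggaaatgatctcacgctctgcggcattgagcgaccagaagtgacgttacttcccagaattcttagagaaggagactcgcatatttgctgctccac
Gnl3 (chr14:31019132-31019381, minus strand): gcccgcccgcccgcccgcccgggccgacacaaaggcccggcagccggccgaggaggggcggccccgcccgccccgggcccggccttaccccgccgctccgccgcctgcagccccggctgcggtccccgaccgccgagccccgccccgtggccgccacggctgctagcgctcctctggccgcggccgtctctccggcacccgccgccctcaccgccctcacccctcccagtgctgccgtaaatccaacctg
Rrn3 (chr16:13780449-13780698, plus strand): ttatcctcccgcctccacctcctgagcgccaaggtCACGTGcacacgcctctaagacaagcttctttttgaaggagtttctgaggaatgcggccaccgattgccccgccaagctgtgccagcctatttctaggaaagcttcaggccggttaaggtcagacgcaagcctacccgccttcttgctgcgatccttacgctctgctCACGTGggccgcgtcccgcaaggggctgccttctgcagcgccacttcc
Nop2 (chr6:125131633-125131882, plus strand): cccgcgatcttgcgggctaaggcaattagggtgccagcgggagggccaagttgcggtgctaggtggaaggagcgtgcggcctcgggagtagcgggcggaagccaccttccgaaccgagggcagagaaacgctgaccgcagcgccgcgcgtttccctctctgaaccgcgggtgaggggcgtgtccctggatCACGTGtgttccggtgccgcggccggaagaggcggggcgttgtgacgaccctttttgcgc

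Of the 9 snoRNP genes, Nop58 lay farthest from vehicle. Nop58, which with Nop56 forms the scaffold of box C/D particles, had intensities of 387 and 435 on vehicle arrays 1 and 2, 382, 502 and 449 on the 1, 3 and 6 h arrays, and 365, 304 and 279 on the 12, 18 and 24 h arrays. The 3 and 6 h arrays were above both vehicle arrays, and the 12, 18 and 24 h arrays and the 1 h array were below both. At 24 h Nop58 stood at 0.68 of the vehicle mean (-0.56 on the log2 scale; limma adjusted p = 0.502), and at 18 h at 0.741 of it (-0.43; limma adjusted p = 0.72). Nop56 had intensities of 524 and 543 on vehicle arrays 1 and 2, 549, 585 and 615 on the 1, 3 and 6 h arrays, and 536, 491 and 493 on the 12, 18 and 24 h arrays. All 3 early arrays of Nop56 were above both vehicle arrays, 12 h lay between them, and 18 and 24 h were below. Fbl, fibrillarin, the ribose methyltransferase of these particles, had intensities of 1208 and 1274 on vehicle arrays 1 and 2, 1272, 1305 and 1399 on the 1, 3 and 6 h arrays, and 1338, 1101 and 1033 on the 12, 18 and 24 h arrays. Its 1 h value lay between the vehicle arrays, 3 to 12 h lay above both and 18 and 24 h below both. Rrp9, a protein of the U3 particle that guides early cuts, stayed within 0.09 of the vehicle mean on the log2 scale, with its highest value at 12 h (0.09), and all 3 late arrays were above both vehicle arrays.

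Among the box H/ACA genes the largest difference from vehicle was -0.33, that of Nolc1 at 24 h. Dkc1, dyskerin, the pseudouridine synthase, had intensities of 698 and 724 on vehicle arrays 1 and 2, 692, 688 and 738 on the 1, 3 and 6 h arrays, and 739, 633 and 610.3 on the 12, 18 and 24 h arrays. The 1 and 3 h arrays of Dkc1 were below both vehicle arrays, 6 and 12 h above both, and 18 and 24 h below both. A further Dkc1 probe set that passed the level filter was below both vehicle arrays on every E2 array. It stood at -0.10 at 6 h and -0.05 at 12 h, so the values above vehicle depended on the probe set. Gar1, a subunit that works with dyskerin, had intensities of 418 and 422 on vehicle arrays 1 and 2, 464, 458 and 445 on the 1, 3 and 6 h arrays, and 428, 384 and 401 on the 12, 18 and 24 h arrays. Every E2 array up to 12 h was above, and both later ones below, the 2 vehicle arrays, which lay within 0.01 of each other. Nolc1, a phosphoprotein that binds snoRNPs in nucleoli and Cajal bodies, had intensities of 329 and 335 on vehicle arrays 1 and 2, 324, 372 and 329.5 on the 1, 3 and 6 h arrays, and 341, 272 and 264 on the 12, 18 and 24 h arrays. The 18 and 24 h arrays were the lowest of Nolc1, at -0.29 and -0.33 on the log2 scale (limma adjusted p = 0.791 and 0.718), and 3 h was the highest. A further Nolc1 probe set that passed the level filter stood at only -0.01 at 18 h and -0.07 at 24 h. A dimmer one, below the filter, stood at -0.32 and -0.34, so the low late values of Nolc1 depended on the probe set. Nhp2, a core RNA-binding subunit, ran from -0.13 at 1 h to 0.10 at 6 h and -0.13 at 24 h. Nop10, the smallest core subunit, had its highest difference at 12 h (0.13).

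Taking the 9 snoRNP genes together, the median was -0.03, 0.07 and 0.08 on the 1, 3 and 6 h arrays and 0.06, -0.13 and -0.13 on the 12, 18 and 24 h arrays. The number above both vehicle arrays was 3, 7 and 7 on the 1, 3 and 6 h arrays and 7, 1 and 1 on the 12, 18 and 24 h arrays. The number below both was 5, 2 and 0 on the 1, 3 and 6 h arrays and 1, 8 and 8 on the 12, 18 and 24 h arrays. Over all genes, in the same order, the shares above both were 39.7%, 35.0% and 38.6%, then 37.9%, 27.2% and 29.0%. The all-gene shares below both were 22.1%, 28.6% and 30.3%, then 25.2%, 44.2% and 46.4%.

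On their brightest probe sets, the 5 RNA polymerase I genes stayed close to vehicle throughout. Their median was 0.002, 0.03 and 0.01 on the 1, 3 and 6 h arrays and 0.02, 0.001 and -0.06 on the 12, 18 and 24 h arrays, and the largest difference from the vehicle mean was 0.10, that of Rrn3 at 1 h. Rrn3, the factor that joins the polymerase to its promoter, had intensities of 297 and 311 on vehicle arrays 1 and 2, 326, 314 and 318 on the 1, 3 and 6 h arrays, and 318, 300.5 and 291 on the 12, 18 and 24 h arrays. All early arrays and the 12 h array were above both vehicle arrays, 18 h lay between them and 24 h was below. Polr1a, the largest catalytic subunit, had intensities of 244 and 241 on vehicle arrays 1 and 2, 243, 249.7 and 253 on the 1, 3 and 6 h arrays, and 257, 243 and 229 on the 12, 18 and 24 h arrays. The vehicle arrays of Polr1a differed by 0.01, and 24 h was the only E2 array below both. A further Polr1a probe set that passed the level filter stood at 0.15 at 12 h, -0.13 at 18 h and -0.05 at 24 h. On that probe set the 18 h array, too, was below both vehicle arrays. Polr1c, a subunit shared with RNA polymerase III, had intensities of 384 and 412 on vehicle arrays 1 and 2, 407, 400.2 and 378 on the 1, 3 and 6 h arrays, and 404, 399.7 and 379.9 on the 12, 18 and 24 h arrays. The 6 and 24 h arrays of Polr1c were below both vehicle arrays, and the others lay between them. A further Polr1c probe set that passed the level filter reached 0.14 at 12 h. Polr1b, the other catalytic subunit, stayed within 0.07, and Ubtf, the upstream binding factor that opens ribosomal DNA for transcription, within 0.06 of the vehicle mean. At 24 h, 4 of 5 were below both vehicle arrays, against 46.4% of all genes, and at 6 h 2 were above both, against 38.6%.

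Among the genes of small subunit processing, Bysl, on its brightest probe set, departed from the time pattern of the others. Bysl, bystin, a late assembly factor of the small subunit, had intensities of 711 and 705 on vehicle arrays 1 and 2, 714, 711 and 868 on the 1, 3 and 6 h arrays, and 771, 753 and 760.3 on the 12, 18 and 24 h arrays. The 6 h array was the highest (0.29 on the log2 scale; limma adjusted p = 0.35), and all 6 E2 arrays, 18 and 24 h included, were above both vehicle arrays, 1 and 3 h only narrowly. A dimmer Bysl probe set, below the level filter, stood at 0.22 at 6 h and 0.03 at 12 h. At 18 and 24 h it stood at -0.09 and 0.01, so the late position of Bysl depended on the probe set. Wdr75, a member of the complex that first joins the nascent precursor, had intensities of 381 and 418 on vehicle arrays 1 and 2, 412, 440.2 and 460.0 on the 1, 3 and 6 h arrays, and 417, 363 and 369 on the 12, 18 and 24 h arrays. Its 3 and 6 h arrays were above both vehicle arrays, and 18 and 24 h were below both. Utp20, a large scaffold protein of the processing complex, had intensities of 372 and 376 on vehicle arrays 1 and 2, 368, 389.6 and 388 on the 1, 3 and 6 h arrays, and 392, 366 and 333 on the 12, 18 and 24 h arrays. The 24 h array of Utp20 was the lowest, at -0.17. Wdr43 and Utp15, which belong to the same early complex as Wdr75, reached 0.13 at 6 h and 0.14 at 3 h, and stood at -0.14 and 0.01 at 24 h. Nop14, which helps assemble the small subunit precursor, lay between -0.12 (24 h) and 0.06 (3 h).

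Among the genes of large subunit processing, Rrs1 and Nip7 lay highest above vehicle at 1 h, at 0.30 and 0.24 on their brightest probe sets. Rrs1, a regulator of ribosome synthesis needed for large subunit assembly, had intensities of 855 and 928 on vehicle arrays 1 and 2, 1099.7, 1068 and 1008 on the 1, 3 and 6 h arrays, and 1019, 809 and 798 on the 12, 18 and 24 h arrays. Every E2 array from 1 to 12 h was above both vehicle arrays, the highest being 1 h (0.30; limma adjusted p = 1), and 18 and 24 h were below both. The other Rrs1 probe set stood at 0.16 at 1 h and averaged 0.14 over the 1, 3 and 6 h arrays, against 0.25 for the brightest. Nip7, known in yeast as a factor of large subunit maturation, had intensities of 268 and 312 on vehicle arrays 1 and 2, 340.4, 343 and 315 on the 1, 3 and 6 h arrays, and 313, 258 and 274 on the 12, 18 and 24 h arrays. The vehicle arrays of Nip7 were 0.22 apart, so that 6 and 12 h cleared the higher one only narrowly, and 24 h lay between them. A dimmer Nip7 probe set, below the level filter, stood at -0.12, 0.01 and -0.26 on the 1, 3 and 6 h arrays. The high early values of Nip7 thus depended on the probe set. Noc2l, whose yeast counterpart escorts large subunit precursors out of the nucleolus, had intensities of 457 and 462 on vehicle arrays 1 and 2, 486, 476 and 531 on the 1, 3 and 6 h arrays, and 489, 436 and 466 on the 12, 18 and 24 h arrays. The 6 h array was the highest of Noc2l, and 18 h was the only E2 array below both vehicle arrays. Bop1, of the complex it forms with Pes1 and Wdr12, had its highest difference at 12 h (0.15) and stood at -0.09 at 24 h. Nop2, a methyltransferase of large subunit RNA, reached 0.17 at 6 h, Nop16 0.16 at 6 h and -0.17 at 24 h, the helicase Ddx18 0.12 at 3 h, and Ftsj3, a methyltransferase, 0.14 at 12 h.

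Rrp12, Pes1 and Wdr12 were below the level filter and were not tested. Across the 8 arrays their intensities ran over 116 to 167 for Rrp12, known in yeast as an export factor of both subunits, 144 to 180.4 for Pes1 and 157 to 194 for Wdr12. The 14 tested processing genes had a median of 0.03, 0.08 and 0.13 on the 1, 3 and 6 h arrays and 0.08, -0.08 and -0.09 on the 12, 18 and 24 h arrays. The number above both vehicle arrays was 6, 13 and 12 on the 1, 3 and 6 h arrays and 10, 1 and 3 on the 12, 18 and 24 h arrays. The number below both was 5, 0 and 0 on the 1, 3 and 6 h arrays and 0, 12 and 8 on the 12, 18 and 24 h arrays. The shares over all genes are those given with the snoRNP counts.

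Over the 5 multifunctional nucleolar genes, vehicle 1 minus vehicle 2 had a median of -0.18. Gnl3, nucleostemin, a nucleolar GTPase, had intensities of 436 and 424 on vehicle arrays 1 and 2, 448, 534 and 511 on the 1, 3 and 6 h arrays, and 462, 391 and 418 on the 12, 18 and 24 h arrays. The 3 and 6 h arrays were the highest of Gnl3, at 0.31 and 0.25 on the log2 scale (limma adjusted p = 0.339 and 0.511), and the vehicle arrays were only 0.04 apart. Ddx21, a helicase that acts in RNA polymerase I transcription and processing, had intensities of 558 and 681 on vehicle arrays 1 and 2, 702, 719 and 665 on the 1, 3 and 6 h arrays, and 640.3, 580.1 and 513 on the 12, 18 and 24 h arrays. The vehicle arrays of Ddx21 differed by -0.29; 1 and 3 h were above both, 24 h was below both, and 6, 12 and 18 h lay between. Ncl, nucleolin, an abundant RNA-binding protein of the nucleolus, had intensities of 3189 and 3642 on vehicle arrays 1 and 2, 3576, 3399 and 3276 on the 1, 3 and 6 h arrays, and 3473, 2999.6 and 2782 on the 12, 18 and 24 h arrays. All arrays of Ncl from 1 to 12 h lay between the vehicle arrays, and 18 and 24 h were below both. Npm1, nucleophosmin, a chaperone of ribosome assembly, was at 0.14 at 1 h and -0.23 at 24 h, and Mybbp1a, a nucleolar regulator of transcription, at 0.10 at 6 h and -0.18 at 24 h. The median of the 5 genes was 0.07, 0.07 and 0.10 on the 1, 3 and 6 h arrays and 0.05, -0.14 and -0.23 on the 12, 18 and 24 h arrays.

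**Figure D3:**
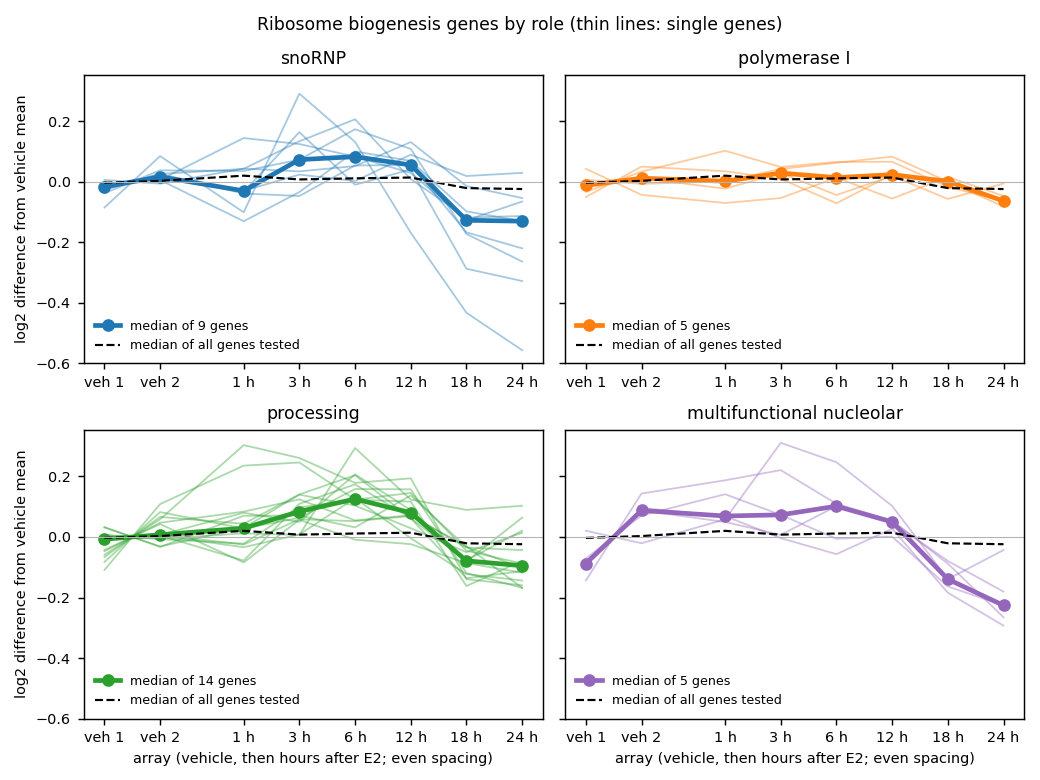
Log2 difference from the vehicle mean (y axis) on each array (x axis, vehicle 1 and 2 and then hours after E2, evenly spaced) for the tested genes of 4 roles. Thin lines are single genes, the thick line is the median of the role and the dashed line the median of all genes tested. The largest difference in the polymerase I panel is 0.10 (Rrn3 at 1 h), and the snoRNP panel reaches -0.56 with Nop58 at 24 h.

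Since each E2 time has 1 array, the 1, 3 and 6 h arrays were joined as an early window (n = 3) and the 12, 18 and 24 h arrays as a late window (n = 3), so that differences between times enter the error. Each window was compared with vehicle (n = 2) in limma. Over the early window the 33 genes had a median difference of 0.07 from vehicle on the log2 scale, against 0.01 over all genes. Of the 33, 26 were higher than vehicle, against 6291 of 10916 genes. Rrs1 lay at 0.25 ± 0.0999 (SE), Gnl3 at 0.21 ± 0.0877 and Nip7 at 0.20 ± 0.0934, the smallest p-values among the members, with limma adjusted p = 0.873, 0.896 and 0.909. No member passed, and 0% of all genes did. At an unadjusted p below 0.05, Rrs1 and Gnl3 were the 2 higher members, against 3.64% of all genes, and 0 members were lower, against 1.74%. The 3 early arrays were all above both vehicle arrays for 10 members, against 13.7% of all genes, and all below for 0, against 6.23%. The 10 were Nop56, Nop10, Gar1, Rrn3, Bysl, Rrs1, Ddx18, Noc2l, Nip7 and Gnl3. Without vehicle 1 the members' median was 0.04, without vehicle 2 it was 0.10, and without the 6 h array 0.05.

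Over the late window the members' median difference from vehicle was -0.04, against -0.01 over all genes. Lower than vehicle were 25 of 33 members (75.8%), against 54.9% of all genes. Nop58 lay at -0.39 ± 0.13 (SE), Nolc1 at -0.19 ± 0.107 and Npm1 at -0.13 ± 0.0773, with limma adjusted p = 0.634, 0.656 and 0.661. Again no member passed, and 0% of all genes did. At an unadjusted p below 0.05, Nop58 was the 1 lower member, against 4.8% of all genes, and 0 members were higher, against 2.8%. Nop58 was also the only member whose 3 late arrays were all below both vehicle arrays (13.3% of all genes), and Rrp9 and Bysl were the 2 whose late arrays were all above (11.1%). The 12 h array stood apart from the other late arrays: without it the members' median was -0.10. The median was -0.0063 without vehicle 2, -0.02 without the 18 h array and -0.01 without the 24 h array.

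Set against each other, the late window was lower than the early window for 30 of 33 members, with a median of -0.10 on the log2 scale, against 6503 of 10916 genes and a median of -0.03 overall. Nop58 differed by -0.49 ± 0.116 (SE; mean log2 level 8.29 in the late and 8.79 in the early window, n = 3 each; limma adjusted p = 0.0928). Nop56 differed by -0.20 ± 0.0577 (limma adjusted p = 0.14) and Gar1 by -0.17 ± 0.0516 (limma adjusted p = 0.148). No member passed, while 0.55% of all genes did. At an unadjusted p below 0.05, 11 members were lower in the late window (33.3%), against 13.6% of all genes, and 0 were higher, against 5.5%. Those 11 were Fbl, Nop56, Nop58, Gar1, Nolc1, Wdr75, Rrs1, Nip7, Npm1, Ddx21 and Gnl3, of which 5 are snoRNP genes and 0 polymerase I genes. All 3 late arrays were below all 3 early arrays for 6 members (18.2%; Nop56, Nop58, Gar1, Utp15, Nip7 and Ddx21), against 15.0% of all genes, and above them for 0, against 8.96%.

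By role, the median late minus early difference was -0.17 for the 9 snoRNP genes, -0.0024 for the 5 polymerase I genes, -0.09 for the 14 processing genes and -0.20 for the 5 multifunctional genes. Within the snoRNP genes it was -0.20 for the box C/D and U3 genes and -0.10 for the box H/ACA genes, and within processing -0.08 for the small and -0.10 for the large subunit. The differences between roles were not tested. Rrp9, at 0.05 ± 0.0433, Polr1b, at 0.008 ± 0.0523, and Bysl, at 0.0012 ± 0.0728, were the members that did not lie lower in the late window. The dimmer Bysl probe set, below the level filter, gave -0.13. Leaving out the 1 h array brought Nop58 past the test, with a difference of -0.60, in a fit in which 232 of 10916 genes passed, against 60 with all arrays. The members' median was -0.14 without the 12 h array and -0.07 without the 24 h array.

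**Figure D4:**
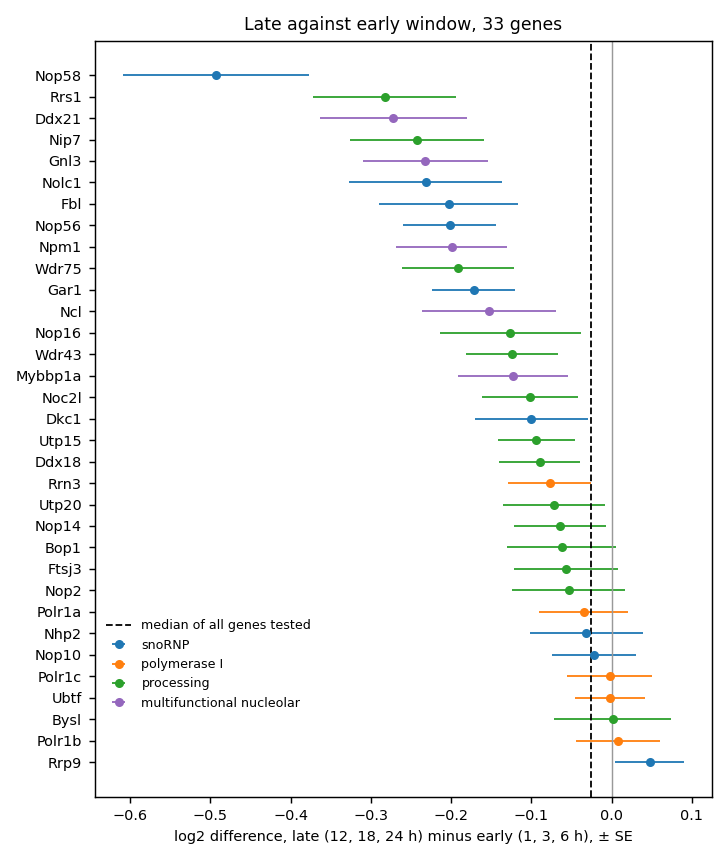
Late minus early log2 difference (x axis, points; bars are ± 1 SE from limma) of the 33 tested genes (y axis), coloured by role, with the median of all genes tested as a dashed line. Nop58 lies lowest at -0.49, and the polymerase I genes lie between -0.08 and 0.008.

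Other probe sets of the same genes were compared with the brightest ones. The 36 genes had 71 probe sets in all, and 25 genes had more than 1. Of the 17 further probe sets that were as bright as the filter asks, 15 were lower in the late than in the early window, with a median of -0.12. The other probe sets gave a late minus early difference of -0.24 for Nop56, -0.12 for Fbl, -0.29 for Rrs1, -0.26 for Ddx21, -0.18 for Nolc1, -0.08 for Ncl and -0.08 for Dkc1. For Noc2l the further probe set gave -0.26, against -0.10 for the brightest. Its differences from the vehicle mean were -0.23, -0.28 and -0.26 on the 12, 18 and 24 h arrays. Those of the brightest were 0.09, -0.08 and 0.02. Over the early window the further Noc2l probe set averaged 0.0031, against 0.11 for the brightest. For Polr1c the further probe set gave a late minus early difference of 0.04, against -0.0024, the opposite sign near 0. Among probe sets that passed the filter, Nop10 was the other gene with a further one of opposite sign, at 0.03, against -0.02 for the brightest. Below the filter, further probe sets of opposite sign included that of Nip7, at 0.13, against -0.24 for the brightest. Probe sets of 1 gene share the RNA of the same arrays and are not replicates.

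Most members had similar profiles over the arrays. The median Pearson correlation of the 528 pairs among the 33 genes was 0.61 over the 8 arrays, against 0.04 among all pairs of tested genes. It was 0.85 among the 5 multifunctional genes, 0.68 among the 9 snoRNP genes, 0.65 among the 14 processing genes and 0.13 among the 5 polymerase I genes. Fbl followed the mean of the other members most closely (r = 0.97), then Wdr75 (0.95) and Nop16 (0.93). Polr1c (0.26), Bysl (0.13), Rrp9 (0.05) and Polr1b (-0.28) followed it least. These values describe the same 8 arrays, which share tissue makeup and scaling.

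Other genes of the pathway, 113 by symbol, of which 94 were tested, had a median of 0.03, 0.07 and 0.06 on the 1, 3 and 6 h arrays and 0.06, -0.06 and -0.07 on the 12, 18 and 24 h arrays. In each of the 3 window comparisons, 0 of the 94 passed the limma test. At 3 h, 63 of 94 (67.0%) were above both vehicle arrays, against 35.0% of all genes, and 8 (8.51%) below, against 28.6%. At 24 h 12 (12.8%) were above, against 29.0%, and 63 (67.0%) below, against 46.4%. Late was lower than early for 75 of 94 (79.8%), against 59.6% of all genes. Among the 94, the 7 tested other RNA polymerase I factors had a late minus early median of -0.07, with 6 of 7 lower. Of these 7, 2 were lower at an unadjusted p below 0.05, against 13.6% of all genes. Znhit6, an assembly factor of box C/D snoRNPs, stood out in the early window, with differences from the vehicle mean of 0.12, 0.71 and 0.52 on the 1, 3 and 6 h arrays and 0.06, -0.25 and -0.25 on the 12, 18 and 24 h arrays. Its early window difference was 0.45 ± 0.158 (SE; limma adjusted p = 0.851). The next 4 in size over the early window were Ddx51 (0.15), Mak16 (0.15), Rsl1d1 (0.14) and Urb2 (0.14), all from the list of large subunit processing.

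Over the late window the 5 largest differences from vehicle in these lists were those of Utp18 (-0.21), a small subunit processing factor, Nop53 (-0.20), Taf1d (-0.19), a subunit of the selectivity factor of RNA polymerase I, Gnl2 (-0.19), a nucleolar GTPase, and Utp3 (-0.18), with limma adjusted p-values from 0.634 to 0.648. Myc itself had differences from the vehicle mean of 0.22, 0.39 and 0.21 on the 1, 3 and 6 h arrays and 0.17, -0.22 and -0.14 on the 12, 18 and 24 h arrays. On the early arrays Myc averaged 0.27 ± 0.107 (SE; limma adjusted p = 0.851), and its vehicle arrays differed by -0.03. The 11 tested genes of Myc and related factors had an early window median of -0.0092, with 7 lower than vehicle, against 42.4% of all genes. Their late minus early median was -0.04, against -0.03 over all genes.

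Markers of other cell types also differed between the arrays. The 8 tested B lymphocyte markers (of 10) had a median of 0.13, 0.12 and -0.11 on the 1, 3 and 6 h arrays and 0.13, -0.44 and -0.46 on the 12, 18 and 24 h arrays, with vehicle 1 at -0.30 against vehicle 2, and their summed intensity ran over 7473 to 11290 in the late window, 9273 to 11244 in the early window and 9257 to 11415 on the vehicle arrays. The 9 tested T lymphocyte markers (of 11) had a median of 0.05, 0.06 and -0.08 on the 1, 3 and 6 h arrays and 0.03, -0.42 and -0.32 on the 12, 18 and 24 h arrays, with sums over 4531 to 5720 in the late window, 5240 to 5866 in the early window and 5238 to 5910 on the vehicle arrays. Pax5 and Trat1 were below the level filter, and no tested marker was at 0. The 18 and 24 h arrays, low in ribosome biogenesis genes, were also low in the lymphocyte markers other than Zap70 (0.11 and 0.13). The 12 h array was low in neither. On the 6 h array the members' median was at its highest (0.10), while the B and T lymphocyte medians were below vehicle (-0.11 and -0.08). The 15 tested skeletal muscle markers (of 16, Myh2 being below the filter) had a median of 0.85, 0.66 and 1.25 on the 1, 3 and 6 h arrays and 0.21, 0.87 and 0.93 on the 12, 18 and 24 h arrays, with sums over 16158 to 26329 in the late window, 21703 to 32865 in the early window and 11838 to 15598 on the vehicle arrays. The 12 tested luminal epithelial markers had a median of 0.01, 0.02 and -0.06 on the 1, 3 and 6 h arrays and 0.28, 0.23 and 0.20 on the 12, 18 and 24 h arrays, with sums over 11636 to 13498 in the late window, 8744 to 10076 in the early window and 10020 to 10131 on the vehicle arrays, and Krt8, Cldn3 and Elf3, named after their values were seen, passed the limma test as higher in the late than in the early window. The 9 macrophage markers had a median of -0.0074, -0.08 and 0.14 on the 1, 3 and 6 h arrays and -0.11, -0.05 and 0.02 on the 12, 18 and 24 h arrays, with late lower than early for 9 of 9. Beyond fits with lymphocyte and muscle markers as covariates, the part of these cell types in the members' values was not tested.

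With the mean of the lymphocyte markers as a covariate in the fit, an alternative added after the data were seen, the members' median was -0.04 for late against early, 0.01 for late against vehicle and 0.06 for early against vehicle, and no member passed. With the mean of the muscle markers as a covariate these medians were -0.12, 0.03 and 0.17, and 8 members (Nop58, Gar1, Nolc1, Rrs1, Nip7, Ncl, Npm1 and Ddx21) passed the late against early test, in a fit in which 9.36% of all genes passed. Over all genes, in the same order, the medians were -0.0079, 0.0033 and 0.0105 with the lymphocyte covariate. With the muscle covariate the all-gene medians were -0.0321, 0.0124 and 0.0426.

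**Figure D5:**
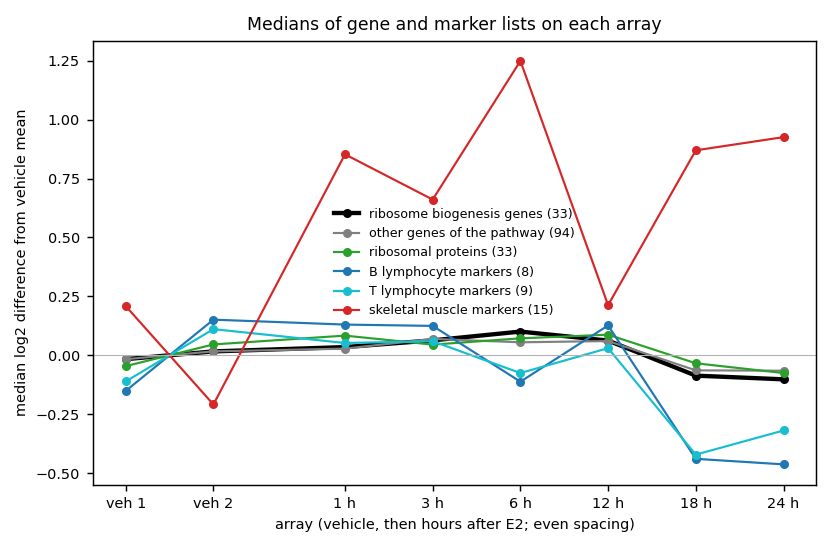
Median log2 difference from the vehicle mean (y axis) on each array (x axis, vehicle 1 and 2 and then hours after E2) for the ribosome biogenesis genes and for other gene and marker lists, with the number of tested genes in brackets. At 24 h the B lymphocyte markers stand at -0.46 and the ribosome biogenesis genes at -0.10.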

How the data were processed

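Per the labels' protocols, biotinylated cRNA was prepared from the total RNA of 8 mammary gland samples for 1-colour Affymetrix arrays. The deposited intensity values of 45101 probe sets by the authors are on a linear scale; GCOS 1.0 and RMA are named, with no role or order, per the submitters' processing notes. No further normalization was applied. Log2 was taken, 64 control probe sets were left out, and 34945 probe sets with 1 gene symbol were kept (932 had several, 9160 none). Of these, 34741 matched RefSeq (GRCm38.p6) through Entrez identifiers, with 0 symbols updated. A gene was its brightest probe set, and genes at or above the 40th percentile of mean level (log2 level 7.72, or intensity 211) entered the tests.

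Groups followed the sample titles. Models with 3 windows (5 residual degrees of freedom) or 7 groups (1 residual degree of freedom) used limma 3.58.1 (R 4.3.3) and a mean-variance trend, Benjamini-Hochberg adjusted over 10916 genes, two-sided, called below an adjusted p of 0.05, and tested on simulated data. The members, roles, lists and rule for naming genes (the 3 members per role farthest from vehicle at any time, the 3 smallest p per comparison, the 5 other pathway genes farthest from vehicle per window, and Myc) were chosen with earlier results of these data known. Alternatives were other filters, quantile scaling, median centring, the mean of probe sets, no trend, robust fitting (statmod 1.5.0), arrays left out, a 1.5-fold threshold and marker covariates. The number of arrays limits precision.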

Additional observations from a re-analysis of the deposited data

How the results depend on the processing

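Of 836 recomputed values, 679 stayed close, meaning a count within 1.5 times, a list's median within 1 SD of its vehicle arrays (0.0233 for the members) or a named gene with the same direction and call. Over all alternatives 11 member calls were made that the values as reported did not give, namely 8 for late against early with the muscle covariate, Nop58 at 18 and at 24 h with median centring, and Nop58 for late against early without the 1 h array. With the muscle covariate 20 of 33 members had the other sign for late against vehicle, Nolc1 (0.032) and Npm1 (0.0373) among them, 7 for early against vehicle and 0 for late against early. With the lymphocyte covariate these numbers were 12, 1 and 9. Shares of sign changes over all genes are not given. The summed muscle markers were higher on every E2 array than on either vehicle array, so the muscle covariate overlapped with E2 against vehicle. The members' median also changed sign for late against vehicle with either covariate, and at 1 h without vehicle 1. No paired analysis was possible because the E2 groups hold 1 array each. The cause of the moves was not tested. With 1 array per E2 time and 2 vehicle arrays, differences near the vehicle spread could not be resolved.

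Without the level filter the genes called were 17, 113 and 118 on the 1, 3 and 6 h arrays and 17, 2 and 2 on the 12, 18 and 24 h arrays, and 1 for early against vehicle. With the 60th percentile filter, which left 21 members, they were 1, 30, 1 and 2 on the 1, 3, 6 and 12 h arrays, with 7 members below at 1 h, 17 above at 3 h, 1 below at 6 h, 0 below at 12 h, 14 below at 24 h, and 0 and 0 at least 1.2-fold below at 18 and 24 h. With median centring they were 106, 278 and 275 on the 1, 3 and 6 h arrays and 99, 171 and 169 on the 12, 18 and 24 h arrays, with 1 member called at 18 h and 1 at 24 h, 4 members below at 1 h, 0 at least 1.2-fold above at 6 h, 1 above at 18 h, 2 above at 24 h, and a member median of -0.13 at 24 h. With the mean of probe sets they were 62, 11 and 2 on the 6, 12 and 18 h arrays, 1 for early against vehicle and 23 for late against early, with 0 members at least 1.2-fold above at 6 h, 4 below at 12 h, 1 above at 18 h, and 1 and 1 at least 1.2-fold below at 18 and 24 h. With quantile normalization 29 genes were called for late against early, with member medians of -0.0698 for late against early, 0.0073 at 1 h, -0.046 at 18 h and -0.0773 at 24 h, 4 members below at 6 h and 1 at least 1.2-fold below at 18 h. At 1.5-fold, 0 members were above at 3 and 6 h and 0 below at 18 and 24 h. Shares over all genes under these settings are not given beside the member counts. The counts therefore show only how far the members' own numbers moved with the setting.

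With the lymphocyte covariate 27 genes were called for early against vehicle and 30 for late against early, with member medians of 0.0147 for late against vehicle and -0.0393 for late against early. With the muscle covariate the counts were 10 and 1022, 8 of the second count being members, and the member medians were 0.168 for early against vehicle, 0.0343 for late against vehicle and -0.124 for late against early.

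Leaving out each array in turn gave 0 to 49 genes called for early against vehicle and 0 to 232 for late against early, with 0 to 1 member among the last. The highest of both counts came without the 1 h array, and 0 genes were called for late against early without the 18 h or the 24 h array. Member medians ran over 0.039 to 0.0983 for early against vehicle, -0.0994 to -0.0063 for late against vehicle and -0.141 to -0.0691 for late against early, and over -0.0149 to 0.0374, 0.0426 to 0.0949 and 0.0584 to 0.102 on the 1, 3 and 6 h arrays and 0.0293 to 0.0822, -0.119 to -0.0659 and -0.136 to -0.0868 on the 12, 18 and 24 h arrays. Member counts were 3 to 7 below at 3 h, 4 to 8 below at 6 h, 3 to 11 below at 12 h, 4 to 7 above at 18 h and 5 to 7 above at 24 h, and by the 1.2-fold rule 0 to 3 above at 1 h, 1 to 5 above at 3 h, 2 above at 6 h, 2 to 4 below at 18 h and 2 to 7 below at 24 h. With a vehicle array left out, position was set against the remaining vehicle array alone, which any gene meets at least as easily. Shares over all genes are not given beside these counts.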

Other observations

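Over all genes tested, late was lower than early for 59.6%, with a median of -0.03 on the log2 scale. Against this, the 33 tested ribosomal protein genes, the structural parts of the ribosome, stood at -0.07, with 31 of 33 lower (93.9%), and their median difference from the vehicle mean was 0.08, 0.05 and 0.07 on the 1, 3 and 6 h arrays and 0.09, -0.03 and -0.08 on the 12, 18 and 24 h arrays. Translation initiation and elongation factors stood at -0.12, with 15 of 16 lower (93.8%), and proliferation genes at -0.13, with 14 of 15 lower (93.3%). Genes of purine and pyrimidine synthesis, at -0.06, with 7 of 12 lower (58.3%), had a share close to that of all genes, and RNA polymerase III genes, at -0.02, with 7 of 9 lower (77.8%), a median close to that of all genes. In these 5 lists 0 genes passed the limma test of late against early, against 0.55% of all genes. The share lower at an unadjusted p below 0.05 was 13.6% over all genes. In the lists such genes numbered 2 of 33 ribosomal protein, 6 of 16 translation and 8 of 15 proliferation genes. They numbered 4 of 12 nucleotide synthesis and 1 of 9 polymerase III genes.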
